A study of Mus musculus with 4 samples.

Results

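Prrx1, Prrx2, Shox2, Msx1, Msx2, Lhx2 and Lhx9 are 7 homeobox genes of the early limb mesenchyme, 7 of the 21938 protein-coding genes in the annotation used here. Their accessible chromatin was taken as every ATAC-seq peak that overlapped the body of one of these genes or the 50 kb on either side of it (GENCODE M21, mouse genome build mm10). This gave 133 of 75101 peaks over 4 peak lists. Peaks of different libraries that overlapped by 1 bp or more were joined into a single region, which gave 80 of 44692 regions. No peak lay in the window of more than 1 of the 7 genes.

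ATAC-seq reads out open chromatin through the Tn5 transposase, which inserts sequencing adapters where DNA is free of nucleosomes. The posterior part of the forelimb bud, where Sonic hedgehog (SHH) is made and received, was dissected at E10.5 (35 somites) from 2 wild-type (WT) and 2 Shh-/- embryos, all on a Swiss Webster background and 1 embryo per library. The Shh-/- embryos carried the Shh tm1amc null allele in all cells. Each reaction used 5000 cells and 18 PCR cycles, and peaks were called in each library separately. The 2 libraries of a genotype are numbered rep1 and rep2 as in their titles.

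Homeobox genes encode transcription factors whose homeodomain binds short AT-rich DNA, with TAATTA a common core. PRRX1 and PRRX2 are paired-type factors that act redundantly in the outgrowth of limb skeletal elements, and SHOX2 is needed for the proximal limb skeleton. MSX1 and MSX2 are mostly repressors and common targets of BMP signaling, and the LIM-homeodomain factors LHX2 and LHX9 act in distal mesenchyme, where they link the ridge to SHH expression. Chromatin of these genes was examined to ask whether they are called as open with and without SHH.

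The sequences that follow are examples of the ways in which the calls differed between libraries, and other regions with the same patterns are described further on without their sequence. A Prrx1 distal region, a Prrx2 intron and an Lhx9 intron with low to moderate GC content were called in 3 libraries, each time without WT rep2, as was the region over the Prrx1 start sites. A GC-rich region upstream of Msx2 and the Msx1 promoter were called in 3 libraries without Shh-/- rep1, and the region upstream of Prrx2 was 1 of 2 called in both WT libraries alone. Capitals mark TAATTA, and both strands were searched for it and for the GLI consensus TGGGTGGTC with at most 1 mismatch. The Lhx9, Msx2 and Msx1 stretches held no match to either and are in lower case throughout. Each of the first 5 is 200 bp centered on the highest point (summit) of the strongest peak there, read from mm10 on the + strand, and the last 2 are promoter stretches on the - strand from RefSeq (GRCm38.p6) with annotated exons removed.
Prrx1 distal region, chr1:163358040-163358239: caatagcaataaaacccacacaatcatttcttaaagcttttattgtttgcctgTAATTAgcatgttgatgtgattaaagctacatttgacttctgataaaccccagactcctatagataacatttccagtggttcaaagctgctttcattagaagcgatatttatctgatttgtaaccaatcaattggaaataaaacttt
Prrx2 intron, chr2:30836481-30836680: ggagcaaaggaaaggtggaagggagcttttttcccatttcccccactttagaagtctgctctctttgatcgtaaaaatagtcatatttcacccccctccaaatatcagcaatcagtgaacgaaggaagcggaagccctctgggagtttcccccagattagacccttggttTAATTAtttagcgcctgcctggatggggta
Prrx2 upstream region, chr2:30833781-30833980: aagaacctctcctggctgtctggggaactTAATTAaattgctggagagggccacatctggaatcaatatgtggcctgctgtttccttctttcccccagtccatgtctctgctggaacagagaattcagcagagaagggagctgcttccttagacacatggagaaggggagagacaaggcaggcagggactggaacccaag
Msx2 upstream region, chr13:53476113-53476312: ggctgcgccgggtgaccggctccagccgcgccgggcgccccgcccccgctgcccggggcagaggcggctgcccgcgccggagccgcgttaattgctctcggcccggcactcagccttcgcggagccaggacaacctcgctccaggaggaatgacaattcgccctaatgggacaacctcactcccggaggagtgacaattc
Lhx9 intron, chr1:138838059-138838258: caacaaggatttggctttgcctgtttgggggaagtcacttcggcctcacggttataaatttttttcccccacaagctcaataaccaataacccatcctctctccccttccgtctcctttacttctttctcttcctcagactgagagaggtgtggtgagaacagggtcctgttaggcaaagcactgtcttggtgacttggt
Prrx1 promoter, chr1:163313711-163313900: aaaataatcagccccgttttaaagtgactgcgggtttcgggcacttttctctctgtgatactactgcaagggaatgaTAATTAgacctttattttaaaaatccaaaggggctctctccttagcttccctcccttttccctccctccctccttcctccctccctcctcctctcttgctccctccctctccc
Msx1 promoter, chr5:37824586-37824835: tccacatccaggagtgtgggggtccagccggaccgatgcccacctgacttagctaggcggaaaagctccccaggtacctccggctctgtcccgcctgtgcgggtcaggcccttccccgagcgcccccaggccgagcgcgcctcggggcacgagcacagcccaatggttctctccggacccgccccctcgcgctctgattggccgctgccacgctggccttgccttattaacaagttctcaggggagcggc

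Whole-list facts bear on every count. WT rep1 held 39080 peaks and WT rep2 held 11973, while Shh-/- rep1 held 5589 and Shh-/- rep2 held 18459. The lists hold no read counts, so the depth behind each list cannot be read from them, and a region that was not called is not thereby closed. The Shh gene itself held 2 peaks in WT rep1, 0 in WT rep2, 0 in Shh-/- rep1 and 2 in Shh-/- rep2, so the lists give no check of the genotype. Of 12 marker genes of limb mesenchyme, 11, 5, 3 and 9 had a promoter peak in WT rep1 and rep2 and Shh-/- rep1 and rep2. In the same order the numbers were 4, 0, 0 and 2 of 10 ectoderm and ridge markers, 2, 1, 0 and 1 of 8 endothelial markers, 3, 1, 0 and 3 of 8 blood markers, and 3, 1, 0 and 3 of 6 muscle progenitor markers. Over all protein-coding genes the share with a promoter peak was 60.4%, 39.2%, 17.3% and 51.3% in the same order. All 12 mesenchyme markers were called in at least 1 library, and the share of all genes so called was not computed. Among them, Hand2 and Tbx5 were called in WT rep1 alone and Hoxa11 in Shh-/- rep2 alone. The part of other cell types in the results was not tested. In bulk tissue fewer mesenchymal cells and less open chromatin per cell cannot be told apart.

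The 7 windows held 67 peaks in WT rep1, 16 in WT rep2, 10 in Shh-/- rep1 and 40 in Shh-/- rep2. Counts of the genotypes overlapped, with means of 41.5 ± 36.1 in WT and 25 ± 21.2 in Shh-/- (SD, n = 2). The difference of means was smaller than either SD. A two-sided exact permutation test of the means gave p = 0.667, where 0.333 is the smallest p that 2 libraries against 2 can give. As a share of the list, the windows took 0.171%, 0.134%, 0.179% and 0.217% of peaks in the same order. Both Shh-/- libraries were above both WT libraries on this measure (0.153% ± 0.0267 in WT and 0.198% ± 0.0267 in Shh-/-, SD, n = 2, exact permutation p = 0.333). This is the smallest p the design allows and does not pass 0.05. When every list was cut to 5589 peaks by score, the length of the shortest list (equal list size), the counts became 6, 6, 10 and 9, and the sign of the difference in counts turned.

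The windows were 104.1 to 168.6 kb long and held more peaks on average than those of all protein-coding genes. The mean per window was 9.57, 2.29, 1.43 and 5.71 peaks for the 7 genes in WT rep1 and rep2 and Shh-/- rep1 and rep2. Over all protein-coding genes it was 5.29, 1.74, 0.774 and 2.44. Medians were 5, 1, 1 and 5 peaks for the 7 genes and 3, 1, 0 and 2 for all. Prrx2, with 6 other annotated genes in its window, supplied 27, 9, 2 and 11 of the peaks.

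**Figure D1:**
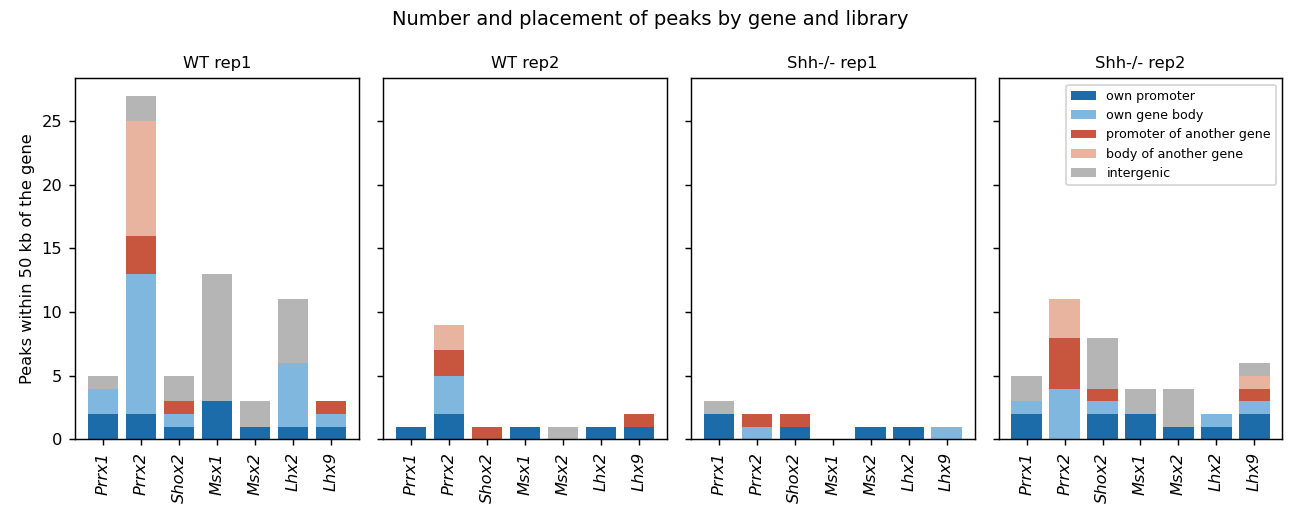
Number of peaks (y axis) within 50 kb of each gene (x axis) in each library, divided by placement in the gene's own promoter, its own body, another gene's promoter, another gene's body or intergenic sequence. Prrx2 had the most peaks in both WT libraries and in Shh-/- rep2 (27, 9 and 11), and Msx1 had none in Shh-/- rep1.

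Of the 133 peaks, those in a promoter or body of the 7 genes numbered 31, 9, 7 and 18 in the 4 libraries in the order above. A promoter is the stretch from 2 kb before to 1 kb after any annotated start site. Intergenic sequence held 22, 1, 1 and 12 peaks, and the remaining ones lay on neighboring genes. The map of peaks along each gene shows calls at or near a start site of every gene. At Prrx2 further peaks ran from 50.3 kb upstream, through the introns and past the end of the gene. Of the 33 regions there, 23 were called in 1 library, beside 64.2% of all regions, and the most upstream was called in WT rep1 alone.

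**Figure D2:**
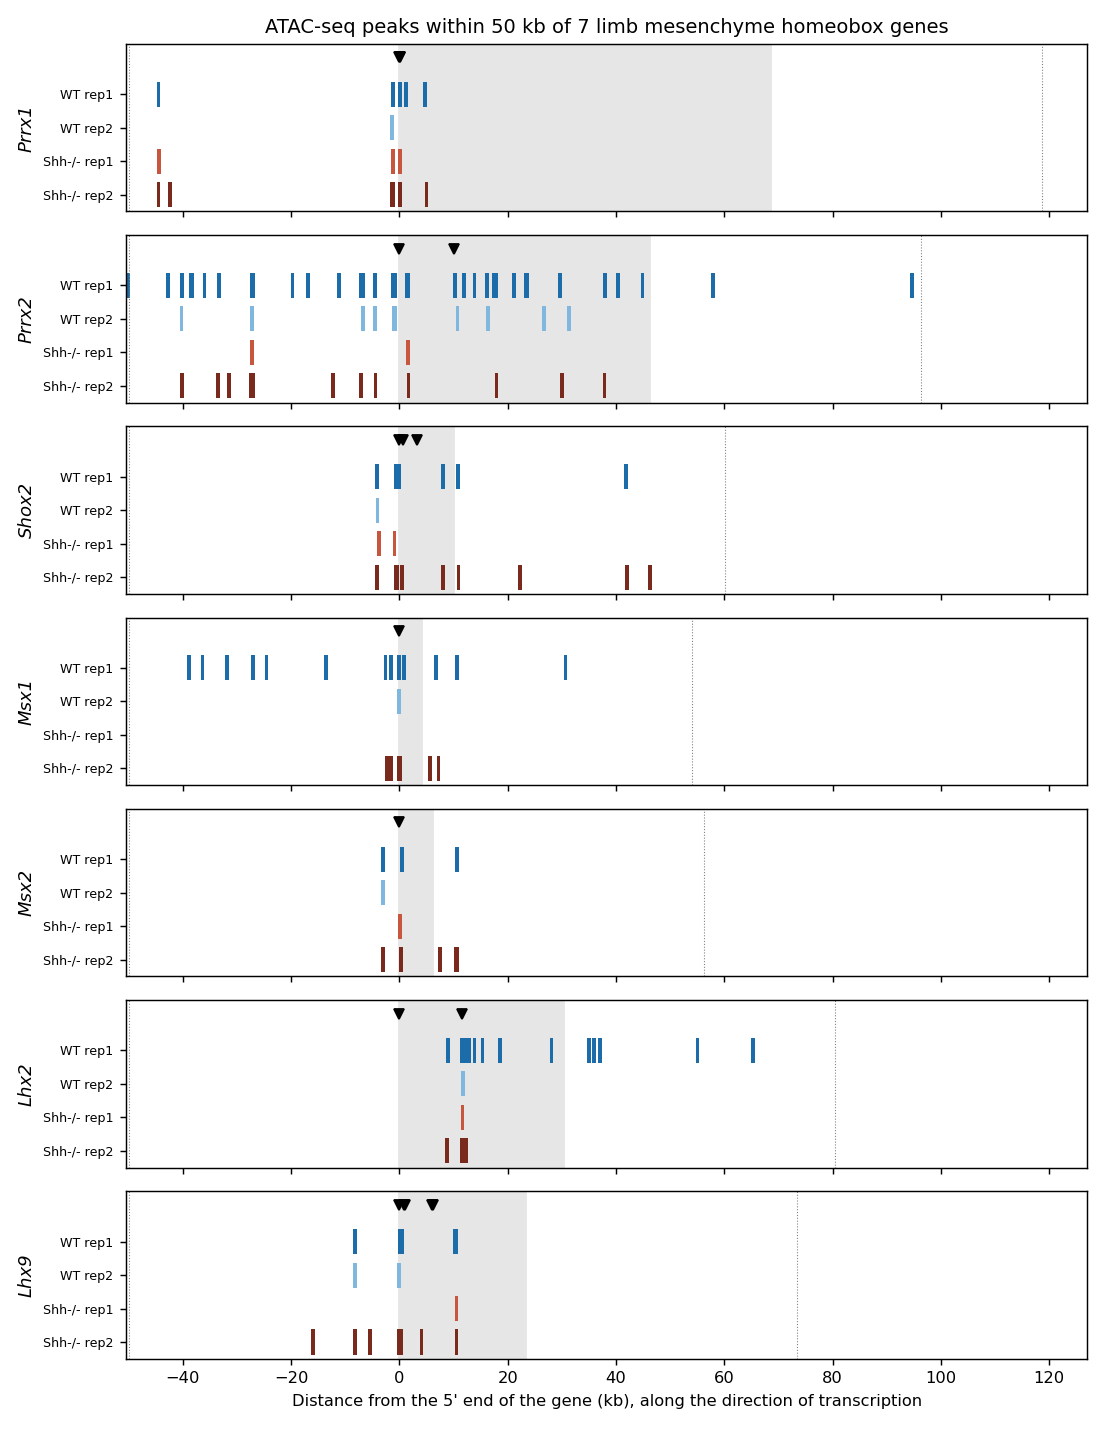
Peaks of the 4 libraries (rows) by distance in kb from the 5′ end of each gene (x axis, in the direction of transcription), with the gene body in grey, start sites as triangles and dotted lines at the window ends. Bars are at least 0.7 kb wide so that short peaks can be seen. At Lhx2 the peaks of the 3 shorter lists all lay at or just before the downstream start site, and at Msx1 the row of Shh-/- rep1 is empty.

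Promoters of all 7 genes were called in WT rep1, where 60.4% of protein-coding genes had a promoter peak. WT rep2 called 5 of 7 (39.2% of all genes), Shh-/- rep1 called 4 of 7 (17.3%) and Shh-/- rep2 called 6 of 7 (51.3%). At equal list size the numbers were 3, 1, 4 and 3 of 7, beside 25.5%, 25.4%, 17.3% and 25.2% of all genes, and Shh-/- rep1 then called the most. In the whole lists Prrx1 and Lhx2 were called in all 4 libraries, 2 of 7 genes beside 16.1% of all genes. Their rank was read as a percentile of the deposited peak score within each list, where 0 is the highest score and tied peaks share their mean rank. The median percentile of the called promoters of the 7 genes was 21.1, 58.3, 40.5 and 28.6 in the 4 libraries, beside 17.9, 33.3, 40.8 and 31.1 for all called promoters. In WT rep2 the called promoters of the 7 genes ran from 4.88 (Lhx2) to 91.1 (Prrx1), the widest range of the 4 libraries.

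**Figure D3:**
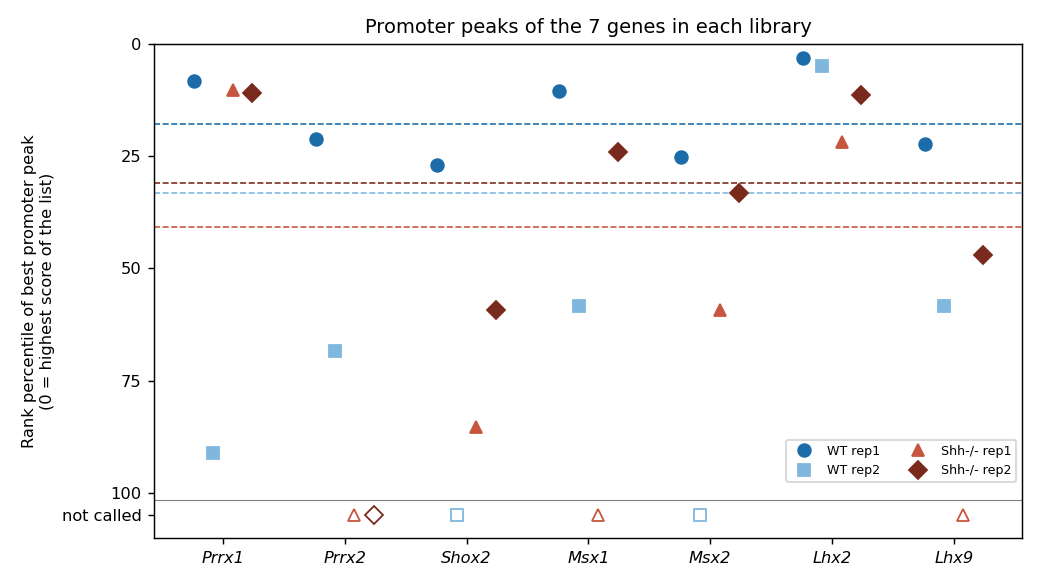
Rank percentile of the best promoter peak (y axis, 0 at the top is the highest score of the list) for each gene (x axis) and library (symbols), with open symbols for promoters not called and dashed lines for the median of all called promoters in each library. Lhx2 lies above the median line of its library in all 4, and Prrx2 has no Shh-/- call.

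Prrx1 (chr1:163245119-163313710, - strand) had 6 regions in its window, and 5, 1, 3 and 5 peaks in WT rep1 and rep2 and Shh-/- rep1 and rep2. The region called in all 4 lay 1.15 kb upstream of the nearest start site (chr1:163314471-163315430, outside exons), with percentiles of 8.31, 91.1, 10.2 and 10.9 and scores of 357, 20, 262 and 348. It was among the best ranked in 3 libraries and near the bottom of the list in WT rep2. In Shh-/- rep2 its peak was 960 bp wide, the longest of the window. The region over the start sites (chr1:163313309-163313925), which spans the first exon with its 5′ UTR, was called at 23.6 in WT rep1, 59.2 in Shh-/- rep1 and 47.0 in Shh-/- rep2 and was not called in WT rep2. The promoter stretch printed above lies within this region and holds 1 TAATTA.

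Far upstream of Prrx1, an intergenic region 44.4 kb from the start (chr1:163357924-163358358) was called in the same 3 libraries, at percentiles of 22.3 in WT rep1, 67.1 in Shh-/- rep1 and 64.7 in Shh-/- rep2. Its GC content of 32.0% was the lowest among the 17 regions called in 3 or 4 libraries, and it holds a TAATTA. An intronic region 4.66 kb downstream of the start (chr1:163308547-163309153), where the annotation also places Gm37644, was called at 25.1 in WT rep1 and at 99.0 in Shh-/- rep2 only. Among genes with a promoter peak in all 4 libraries, the pattern over the 4 percentiles was nearest in Parp16 (9.33, 79.9, 11 and 15.9, summed absolute difference 18.0) and Ndc1 (17.8, 91.1, 26.7 and 11.4, summed difference 26.7).

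Prrx2 (chr2:30834972-30881251, + strand) held both of the regions called in WT alone. The first (chr2:30833507-30834572) lay 1.09 kb before the more upstream of its 2 annotated start sites (chr2:30834972 and chr2:30845059). It was in intergenic sequence within the promoter window of that site. Its percentile was 21.1 in WT rep1 (score 129) and 68.4 in WT rep2 (score 34), and neither Shh-/- library had a peak there. The second lay in an intron (chr2:30850846-30851604), at 47.2 in WT rep1 and 68.4 in WT rep2, with scores of 45 and 34. At a score of at least 50 neither region was called in both WT libraries. The promoter region printed above holds a TAATTA, and the second region holds neither motif. The RefSeq promoter entry of Prrx2 is at the downstream start site (chr2:30845059). In the promoter window there, WT rep1 had a peak at 55.3 (chr2:30845016-30845467) and WT rep2 at 98.2 (chr2:30845583-30845801). Neither Shh-/- library had a peak in that window.

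In contrast, an intron 1.61 kb past the more upstream Prrx2 start site (chr2:30836087-30836991) was called in both Shh-/- libraries and in WT rep1. Its percentile was 16.9 in WT rep1, 15.2 in Shh-/- rep1 and 7.66 in Shh-/- rep2, with scores of 168, 200 and 437. WT rep2 had no peak there. The intronic region lies just outside the promoter window of that start site. Prrx2 thus counted as not called in the Shh-/- libraries, although both had a peak near its more upstream start site. At equal list size the intron was the 1 region called in both Shh-/- libraries and in no WT library, since its WT rep1 score fell below the limit of 209 (1 of 16 regions, beside 3.3% of all regions at that size). A further 3 intronic regions were called in WT rep1 and Shh-/- rep2, at 41.4 and 78.7 (chr2:30852090-30853098), 79.5 and 78.7 (chr2:30864521-30865166), and 26.9 and 54.8 (chr2:30872714-30873219).

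Neighbors of Prrx2 carried the other well shared regions of its window. The Ntmt1 promoter (chr2:30807294-30808348), of an N-terminal methyltransferase gene, was called in all 4 libraries at 1.72, 4.88, 52.0 and 8.94 in WT rep1 and rep2 and Shh-/- rep1 and rep2. The Asb6 promoter (chr2:30830255-30830812) was called at 16.9, 68.4 and 47.0 in the libraries other than Shh-/- rep1. In the same libraries the Asb6 body (chr2:30827491-30828567) was called at 31.1, 50.3 and 54.8, and the 1700001O22Rik body (chr2:30794545-30795105) at 14, 43.7 and 33.1. The WT rep1 peak in the Asb6 body was 1077 bp, the longest of the window. At equal list size the 1700001O22Rik region was the 1 region called in both WT libraries alone (1 of 16, beside 3.73% of all), and its WT rep1 score of 209 was the score at the limit.

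Shox2 (chr3:66971727-66981771, - strand) had 5, 1, 2 and 8 peaks. Its promoter region (chr3:66981108-66982839) also covers a start site of Rsrc1, a splicing factor gene on the other strand, and includes Shox2 5′ UTR and exon sequence. It was called at 26.9 in WT rep1, 85.4 in Shh-/- rep1 and 59.3 in Shh-/- rep2, and not in WT rep2. The WT rep1 peak spanned 1346 bp, the longest of the window. A region 4.13 kb upstream (chr3:66985342-66986254), in the promoter window of another Rsrc1 transcript, was called in all 4 libraries at 14, 43.7, 76.0 and 22.6, so the best shared call near Shox2 cannot be assigned to either gene from position. A region that overlaps Shox2 exons (chr3:66973569-66973865) was called at 79.5 in WT rep1 and 78.7 in Shh-/- rep2.

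Msx1 (chr5:37820485-37824583, - strand) had 13, 1, 0 and 4 peaks, and Shh-/- rep1 had none in the whole window. The promoter region (chr5:37824141-37824960), which takes in the first exon with its 5′ UTR, was called at 10.48 in WT rep1, 58.3 in WT rep2 and 24.1 in Shh-/- rep2. A second promoter region 1.49 kb upstream (chr5:37825802-37827320) was called at 31.1 in WT rep1 and 27.4 in Shh-/- rep2, and in Shh-/- rep2 its peak was 1506 bp, the longest of the window. Of the 13 regions of Msx1, 10 were called in 1 library, beside 64.2% of all regions.

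Msx2 (chr13:53466884-53473074, - strand) had 3, 1, 1 and 4 peaks in 4 regions. Its promoter region (chr13:53472166-53473148), with 5′ UTR and exon sequence, was called at 25.1 in WT rep1, 59.2 in Shh-/- rep1 and 33.1 in Shh-/- rep2. The region 3.14 kb upstream (chr13:53475780-53476512, intergenic) was called at 17.9 in WT rep1, 38.1 in WT rep2 and 10.9 in Shh-/- rep2, above the promoter in the libraries that called both. Thus WT rep2 called the upstream region without the promoter, and Shh-/- rep1 the promoter without the upstream region. An intergenic region 10.7 kb downstream of the start (chr13:53462063-53463001), past the end of the gene, was called at 37.0 in WT rep1 and 35.4 in Shh-/- rep2, where its peak of 939 bp was the longest of the window.

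Lhx2 (chr2:38339281-38369733, + strand) had the best ranked promoter of the 7 in WT rep1 and rep2. The call was at the downstream of its 2 start sites (chr2:38350422-38352454), a region that overlaps 5′ UTR and exon sequence, with percentiles of 3.10, 4.88, 21.8 and 11.4 and scores of 781, 279, 153 and 336. All 4 libraries ranked it at 21.8 or better. The peak in WT rep1 was 1953 bp, the longest in any of the 7 windows. No library had a peak over the RefSeq promoter of the upstream start site, and a region in a Lhx2 intron (chr2:38347706-38348707), which overlaps the promoter and an exon of the noncoding Gm27197, was called at 31.1 in WT rep1 and 31.1 in Shh-/- rep2. The window held 11, 1, 1 and 2 peaks. Of its 11 regions, 9 were called in 1 library, all in WT rep1, beside 51.6% of all regions called in WT rep1 alone. The promoter patterns nearest to Lhx2 were those of Cfap36 (3.63, 4.88, 21.8 and 12.8, summed difference 1.89) and Med21 (1.84, 4.44, 21.8 and 10.4, summed difference 2.78).

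Lhx9 (chr1:138825186-138848577, - strand) had 3, 2, 1 and 6 peaks. The promoter region of its most upstream start site (chr1:138847778-138849028) was called at 22.3 in WT rep1, 58.3 in WT rep2 and 47.0 in Shh-/- rep2. Its peak in Shh-/- rep2 was 1161 bp, the longest of the window. No library had a peak over the RefSeq promoter entry of Lhx9 (chr1:138842395-138842694), at a downstream start site. With the promoter of the longest transcript only, Lhx9 was called in Shh-/- rep2 alone, at 78.7. A region 4.27 kb downstream of the nearest start site (chr1:138837758-138838619), whose best summit is intronic and which overlaps an exon, was called at 26.9 in WT rep1, 52.0 in Shh-/- rep1 and 43.8 in Shh-/- rep2. As at Msx2, 1 region lacked a call in Shh-/- rep1 alone and the other in WT rep2 alone. The promoter of the neighboring 2310009B15Rik (chr1:138856573-138856867) was called at 22.3, 38.1 and 78.7 in the libraries other than Shh-/- rep1. At a score of at least 50 this was the 1 region called in both WT libraries alone, of 36 regions and beside 1.07% of all regions at that minimum.

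**Figure D4:**
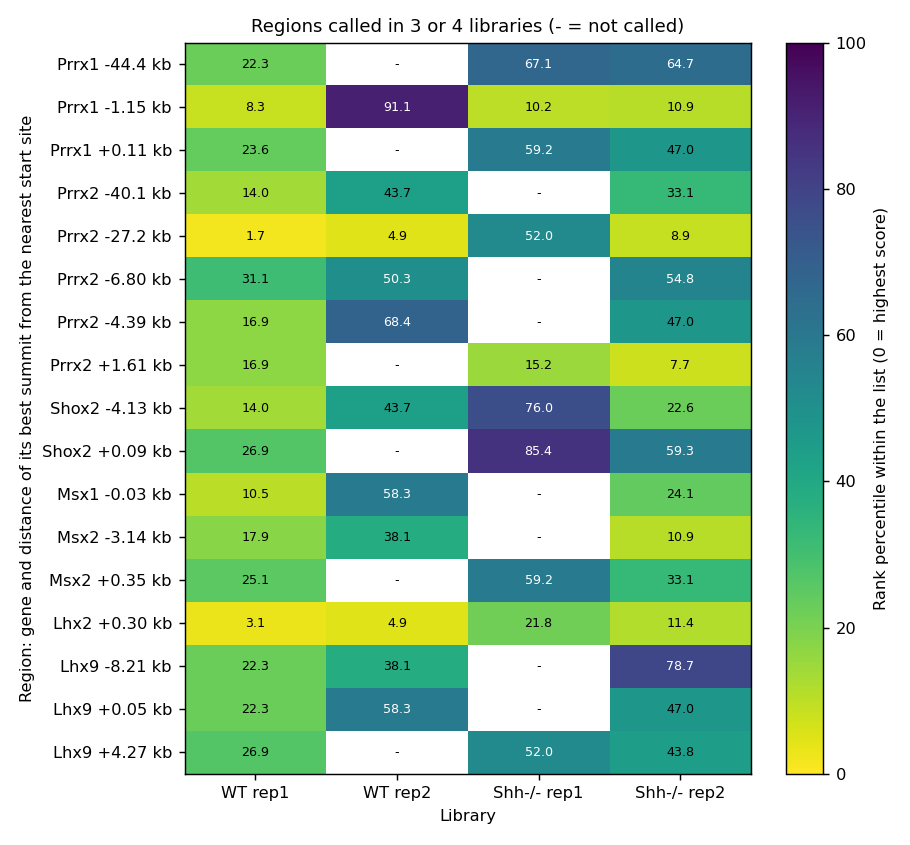
Rank percentile (color and number, 0 is the highest score of the list) in each library (columns) of the 17 regions called in 3 or 4 libraries (rows, named by gene and distance in kb of the best summit from the nearest start site). All 17 were called in WT rep1 and in Shh-/- rep2, and the blank cells are divided over WT rep2 (6) and Shh-/- rep1 (7).

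Grouped by library, 4 of the 80 regions (5.0%) were called in all 4, beside 7.97% of all regions. Only 2 (2.5%) had a call in each WT library and none in Shh-/-, beside 2.09% of all regions, and 0 were called in both Shh-/- libraries alone, beside 0.396%. The share of WT-only regions was near that of all regions. Calls in 1 library made up 50 regions (62.5%, beside 64.2% of all). Of the 80 regions, 36 were from WT rep1 alone (45.0%, beside 51.6% of all) and 11 from Shh-/- rep2 alone (13.8%, beside 7.33%). A further 3 were from WT rep2 alone (3.75%, beside 4.28%) and 0 from Shh-/- rep1 alone (beside 1.01%). A further 11 regions (13.8%, beside 11% of all) were called in WT rep1 and Shh-/- rep2, the longer list of each genotype. The regions missing from WT rep2 alone numbered 6 (7.5%, beside 2.26% of all), and those missing from Shh-/- rep1 alone numbered 7 (8.75%, beside 11.3%).

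GC content moved with which library missed a region. For the 28 regions called in both longer lists, WT rep2 called 11 (39.3%, beside 59.1% of such regions over the genome) and Shh-/- rep1 called 10 (35.7%, beside 31.5%). Median GC content was 67.5% in the 11 that WT rep2 called and 56.0% in the 17 it did not. In Shh-/- rep1 the order was the reverse, with 52.3% in the 10 called and 59.5% in the 18 not called. Over all 14539 regions called in both longer lists the same medians were 65.5% and 58.5% for WT rep2 and 60.0% and 65.0% for Shh-/- rep1, so the pattern was not particular to these genes. GC content of the 6 regions that only WT rep2 missed ran from 32.0% to 68.5% (median 50%), and that of the 7 that only Shh-/- rep1 missed from 55.0% to 74.0% (median 64.5%). It was 51.5% in the WT-only region upstream of Prrx2, 47.0% in the Prrx2 intron and 72.0% in the Msx1 promoter. The part of GC content in these calls was not tested.

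**Figure D5:**
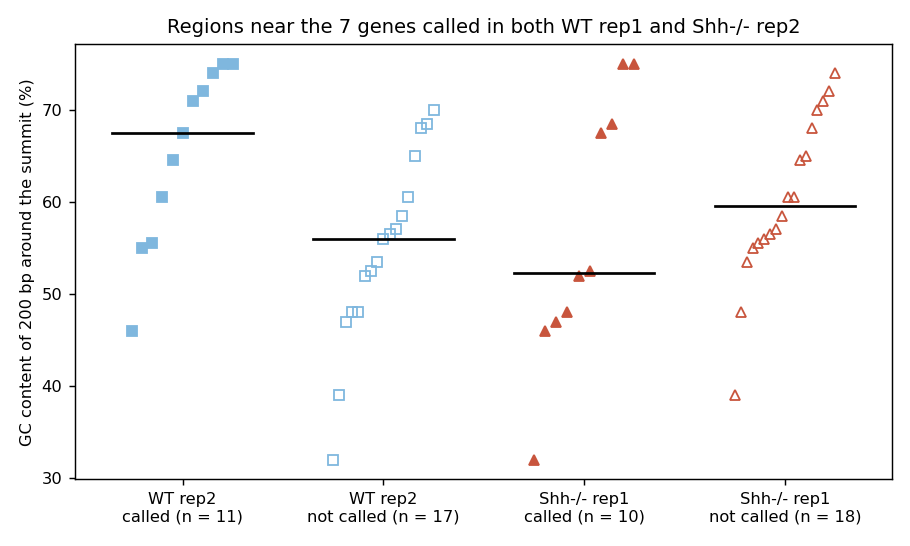
GC content in percent (y axis) of 200 bp around the summit of the 28 regions called in both WT rep1 and Shh-/- rep2, divided by whether WT rep2 or Shh-/- rep1 also called them (x axis), with a bar at each median. The called points of WT rep2 lie toward high GC content and those of Shh-/- rep1 toward low GC content, with overlap.

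The selection used no sequence features. Median GC content of the 200 bp windows was 54.3% in the 80 regions and 55.5% in all 44692. A TAATTA stood in 7 regions (8.75%, beside 4.03% of all), 4 of them called in 2 or more libraries, at the start and far upstream of Prrx1 and at the upstream and intronic regions of Prrx2. A GLI match stood in 4 regions (5.0%, beside 5.62%), each called in 1 library. The E-box CANNTG, bound by factors of the TWIST and HAND kind, stood in 47 (58.8%, beside 63.4%). All 7 genes had entries in the RefSeq promoter table, 8 in all, and a TAATTA stood in those of Prrx1 and Msx2, beside 5.29% of 32851 promoters, while no entry held a GLI match, beside 6.74%.

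Genes that work with the 7 were looked up in the same way. A list of 15 cofactors and limb partners includes the LIM-domain binding genes Ldb1 and Ldb2 and the TALE homeobox genes Meis1 and Meis2. Tbx5, Twist1, Lmx1b, Alx4, Meis1 and Meis2 are also among the mesenchyme markers above, so the counts of these lists are not independent. The partner list had a promoter peak for 15 genes in WT rep1, 6 in WT rep2, 5 in Shh-/- rep1 and 11 in Shh-/- rep2. The shares over all protein-coding genes were 60.4%, 39.2%, 17.3% and 51.3%. In all 4 libraries 3 of the 15 were called, beside 16.1% of all genes. Lmo4, a LIM-only protein gene, was called at 7.50, 38.1, 85.4 and 8.02. Ldb1, whose protein joins LIM-homeodomain factors into complexes, was called at 10.9, 20.7 and 18.9 and not in Shh-/- rep1. In contrast, Ldb2, Tbx5, Dlx5 and Pitx1 were called in WT rep1 alone, at 55.3, 41.4, 41.4 and 91.8.

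A list of 18 homeobox genes used mainly in other tissues had 11 promoters called in WT rep1 and 2 in WT rep2. It had 0 in Shh-/- rep1 and 5 in Shh-/- rep2. The shares over all protein-coding genes were 60.4%, 39.2%, 17.3% and 51.3% in the same order. No library called 7 of the 18, and the share of all genes called in no library was not computed. Here 0 of 18 were called in all 4, beside 2 of the 7 limb genes and 16.1% of all genes. No difference between these lists was tested. A call in both WT libraries and in neither Shh-/- library was seen for the promoters of 1.53% of all protein-coding genes. Such a call was seen for 1 of the 7 genes (Prrx2), 1 of the mesenchyme markers (Hoxd11), 1 of the endothelial markers (Sox18), 1 of the homeobox genes of other tissues (Nkx2-1) and 0 of the partner, ectoderm, blood and muscle lists. With 7 genes, 1 call is too few to set against that share.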

How the data were processed

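The 4 ATAC-seq libraries (posterior forelimb bud, 2 per genotype) were grouped by the labels' titles. The submitters' processing notes name Bowtie2 2.2.5, MACS2 2.1.0 and mm10. The authors called peaks with MACS2 in each library (q-value cutoff 0.05, window size 200 bp), and read filters and any shift of reads to the Tn5 cut are not given in the sources used here. The deposited lists give positions, summits and a score, whose scale the files do not state, and fold, p-value and q-value columns that hold 0 in every peak. The score the authors deposited was used only to rank peaks within a list (tied scores share the mean rank) or to keep those of at least 50. The study's limma test of signal was not repeated, since the lists hold no read counts, and no intervals were given.

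Regions, promoters (GENCODE M21, basic set) and percentiles were computed with Python 3.11.15, pandas 2.3.3 and numpy 2.4.6, and the code was tested on simulated data. Group means were compared by two-sided exact permutation tests. All 7 genes are named. Regions described singly are those at a gene's own promoter or body called in 2 or more libraries, others called in 3 or more, those called in both libraries of 1 genotype alone, and the longest peak of each window. Of those with promoter calls in all 4 libraries, the 2 nearest genes by promoter percentiles are named. Genes from the marker, partner and other-tissue lists are named as examples (1 result is not reported here), and the upstream Prrx2 sequence was added after its calls were seen. Genes and lists were chosen with earlier results of these data known. Alternatives covered window, list size, score, promoter width, start site, ties, merging by summits and each library left out.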

Additional observations from a re-analysis of the deposited data

How the results depend on the processing

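The difference in peaks in the 7 windows (WT minus Shh-/-) was 16.5 and turned to -3.5 at equal list size and to -9.0 without WT rep1. Leaving out each library gave -9.0 to 42.0. As a percent of the list the difference was -0.0453 and ran from -0.0642 to -0.0264 without each library. No exact p reached 0.05 in any setting, which the design does not allow. Replicate numbers are not stated to mark pairs. With a replicate block the differences stayed at 16.5 (exact sign-flip p = 1.0) and -0.0453 (p = 0.5). Regions called in all libraries numbered 4, fell to 2 at a score of at least 50, and ran from 4 to 11 without each library (10 without WT rep2 and 11 without Shh-/- rep1). WT-only regions numbered 2, 3 with peaks joined by summits within 500 bp, 1 at equal list size and 1 at a score of at least 50. Without each library they numbered 2 to 38 (5 without WT rep1, 38 without WT rep2, 9 without Shh-/- rep2). Shh-/- only regions numbered 0, 1 at equal list size, and 0 to 11 without each library (6 without WT rep1, 11 without Shh-/- rep1). With fewer libraries a region needs fewer calls. Promoters called fell at equal list size from 7 to 3 in WT rep1, 5 to 1 in WT rep2 and 6 to 3 in Shh-/- rep2, and stayed at 4 in Shh-/- rep1, the shortest list. A score of at least 50 left 1 in WT rep2. In all 4 libraries the number was 2, and it was 1 with a promoter window of 500 bp either side, at equal list size and at a score of at least 50. For the regions called in 3 or 4 libraries, the number of calling libraries was counted again at equal list size and at a score of at least 50. It moved by over 1.5 times in 9 cases, each at equal list size and some to 0 libraries. In the other 25 cases it moved by 1.5 times at most or not at all. The lists' sizes and the coarse low scores limit what a missing call shows.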
